A study of Mus musculus with 13 samples.

Results

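Expression of 10 genes that mark the endothelium of arteries, Gkn3, Cytl1, Bmx, Sema3g, Efnb2, Mgp, Fbln5, Hey1, Gja4 and Vegfc, was followed in the midbrains of MPTP-treated and control mice with or without astrocytic Ripk3. They are 10 of the 49315 genes in each count table and were found by their GRCm38 symbols; all 10 were among the 19360 genes with enough counts to test. Gkn3 and Cytl1 were chosen by their fitted fold changes with MPTP in control mice, in which both were lower, in these same data, and the other 8 were taken as arterial genes with those results already known. Comparisons that use the MPTP-treated control libraries are therefore given for these genes as a description: no p-value of a gene is printed, and counts past a threshold, which the choice of genes fixed in part, stand beside the share of all genes without being read as a result. RNA-Seq of whole midbrain was performed on 13 male mice, 8 to 12 weeks of age. All carried floxed Ripk3 alleles (Ripk3fl/fl) on a C57BL/6J background of at least 10 generations, and all received tamoxifen (60 mg/kg) for 5 days. In Cre+ mice (Ripk3fl/fl Aldh1l1Cre+), a tamoxifen-inducible recombinase driven by the Aldh1l1 promoter deletes Ripk3 in astrocytes. Cre- mice (Ripk3fl/fl Aldh1l1Cre-) were littermates without the recombinase. The groups were Cre- Saline (n = 3), Cre- MPTP (n = 3), Cre+ Saline (n = 3) and Cre+ MPTP (n = 4), where MPTP, a toxin of dopaminergic neurons, was given at 20 mg/kg in 5 daily doses and the midbrain was taken 3 days later.

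Brain endothelial cells change their gene expression along the vessel, from arteries through capillaries to veins. Arterial identity is set by VEGF and Notch signaling, whose targets include the repressor Hey1, and is marked by the membrane ligand ephrin B2, by gap junction proteins and by secreted and matrix proteins of the arterial wall. Several of these genes are also expressed outside arteries: Efnb2 and Hey1 in neural cells, and Mgp and Fbln5 in mural cells and fibroblasts. In whole tissue, fewer arterial cells and less RNA of a gene per cell cannot be told apart.

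Library totals over genes ran from 11489150 to 29397278 counts. Cre- MPTP replicate 1 stood apart: it had the lowest total and 21101 genes detected, against 25432 to 27186 in the other 12 libraries. Cre+ MPTP replicate 4 also stood apart, where 5 striated muscle genes summed to 5486 CPM (counts scaled to library size, with TMM factors), against 7.59 to 123 CPM elsewhere. Counts of Ripk3, the targeted gene, were between 4 and 40, too few to check the genotype of single mice. Th, the rate-limiting enzyme of dopamine synthesis, had a mean of 43.4 ± 9.15 CPM in Cre- Saline and of 46.4 ± 5.99 CPM in Cre- MPTP mice (SD, n = 3 each), and the groups overlapped. Endothelial genes were detected in every group: the 18 genes of a pan-endothelial list summed to 595 to 1036 CPM per library, and none of the 20 other arterial genes examined was at 0 in any group.

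Gkn3 (ENSMUSG00000030048), which encodes the secreted protein gastrokine 3 and marks arterial endothelium in mouse brain, lies on chromosome 6 of GRCm38 from 87383256 to 87388935 on the minus strand. Cytl1 (ENSMUSG00000062329), which encodes the secreted cytokine-like 1, lies on chromosome 5 from 37735519 to 37739820 on the plus strand. Both were low in all Cre- MPTP libraries. The 250 bases upstream of their RefSeq start sites (GRCm38.p6) are shown, 5′ to 3′ along the gene, because these were the members that moved most. Capitals mark GGAA, the core bound by ETS family factors, on either strand (TTCC on the complement). The windows are chr6:87388936-87389185 for Gkn3, minus strand, and chr5:37735269-37735518 for Cytl1, plus strand.
Gkn3: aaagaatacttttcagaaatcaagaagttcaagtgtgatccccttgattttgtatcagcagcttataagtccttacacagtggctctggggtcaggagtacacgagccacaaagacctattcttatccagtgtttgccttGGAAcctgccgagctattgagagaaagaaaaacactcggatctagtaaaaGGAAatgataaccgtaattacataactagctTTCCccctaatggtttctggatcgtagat
Cytl1: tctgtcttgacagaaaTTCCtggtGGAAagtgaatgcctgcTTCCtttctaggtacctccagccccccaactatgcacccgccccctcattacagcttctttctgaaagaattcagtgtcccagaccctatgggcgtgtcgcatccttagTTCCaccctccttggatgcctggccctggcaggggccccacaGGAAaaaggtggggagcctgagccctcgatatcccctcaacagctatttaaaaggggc
The Gkn3 window held 3 matches and 40.8% G or C, and the Cytl1 window held 5 matches and 54.8%. GGAA was searched after the motifs planned first had given no match in these windows, and it is common: 93.4% of 32851 promoter windows of this length held it, with a median of 3 matches. The planned motifs, on both strands, were TGGGAA (the core of the Notch effector RBPJ), CATTGT (a SOX core) and TATAAA (the TATA box). Of the 8 members with a window (9 windows, as Fbln5 has 2), TGGGAA occurred in 2, against 21.6% of all windows. These were Bmx (178 bases before the start) and Fbln5 (153 bases before, in only 1 of its windows). CATTGT occurred in 0 of 8 (10.7% of all windows), and TATAAA in 1, Efnb2, on the complementary strand 30 bases before the start (12.4% of all windows). These 8 members leave out Mgp and Hey1.

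Gkn3 had 6.67, 3.79 and 4.20 CPM in the Cre- Saline libraries (168, 97 and 115 counts) whereas MPTP-treated Cre- mice had 0, 0.238 and 0.132 CPM (0, 6 and 4 counts). It had 3.23, 2.77 and 1.60 CPM in Cre+ Saline and 0.665, 2.18, 1.91 and 0.725 CPM in Cre+ MPTP libraries. The 3 Cre- MPTP libraries lay below all 10 others, and the Cre+ MPTP libraries overlapped Cre+ Saline. The count of 0 came from the shallowest library, where a count of 0 allows a level of up to 0.325 CPM (3 counts), so it did not separate that mouse from the other two of its group. Cytl1 had 1.11, 2.19 and 1.86 CPM in Cre- Saline and 0, 0.317 and 0.0660 CPM in Cre- MPTP libraries (0, 8 and 2 counts). In Cre+ mice it had 1.498, 0.610 and 1.29 CPM with Saline and 0.813, 1.57, 0.799 and 0.649 CPM with MPTP. The 3 Cre- MPTP libraries were again the lowest of all 13, and the remaining groups overlapped each other.

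**Figure D1:**
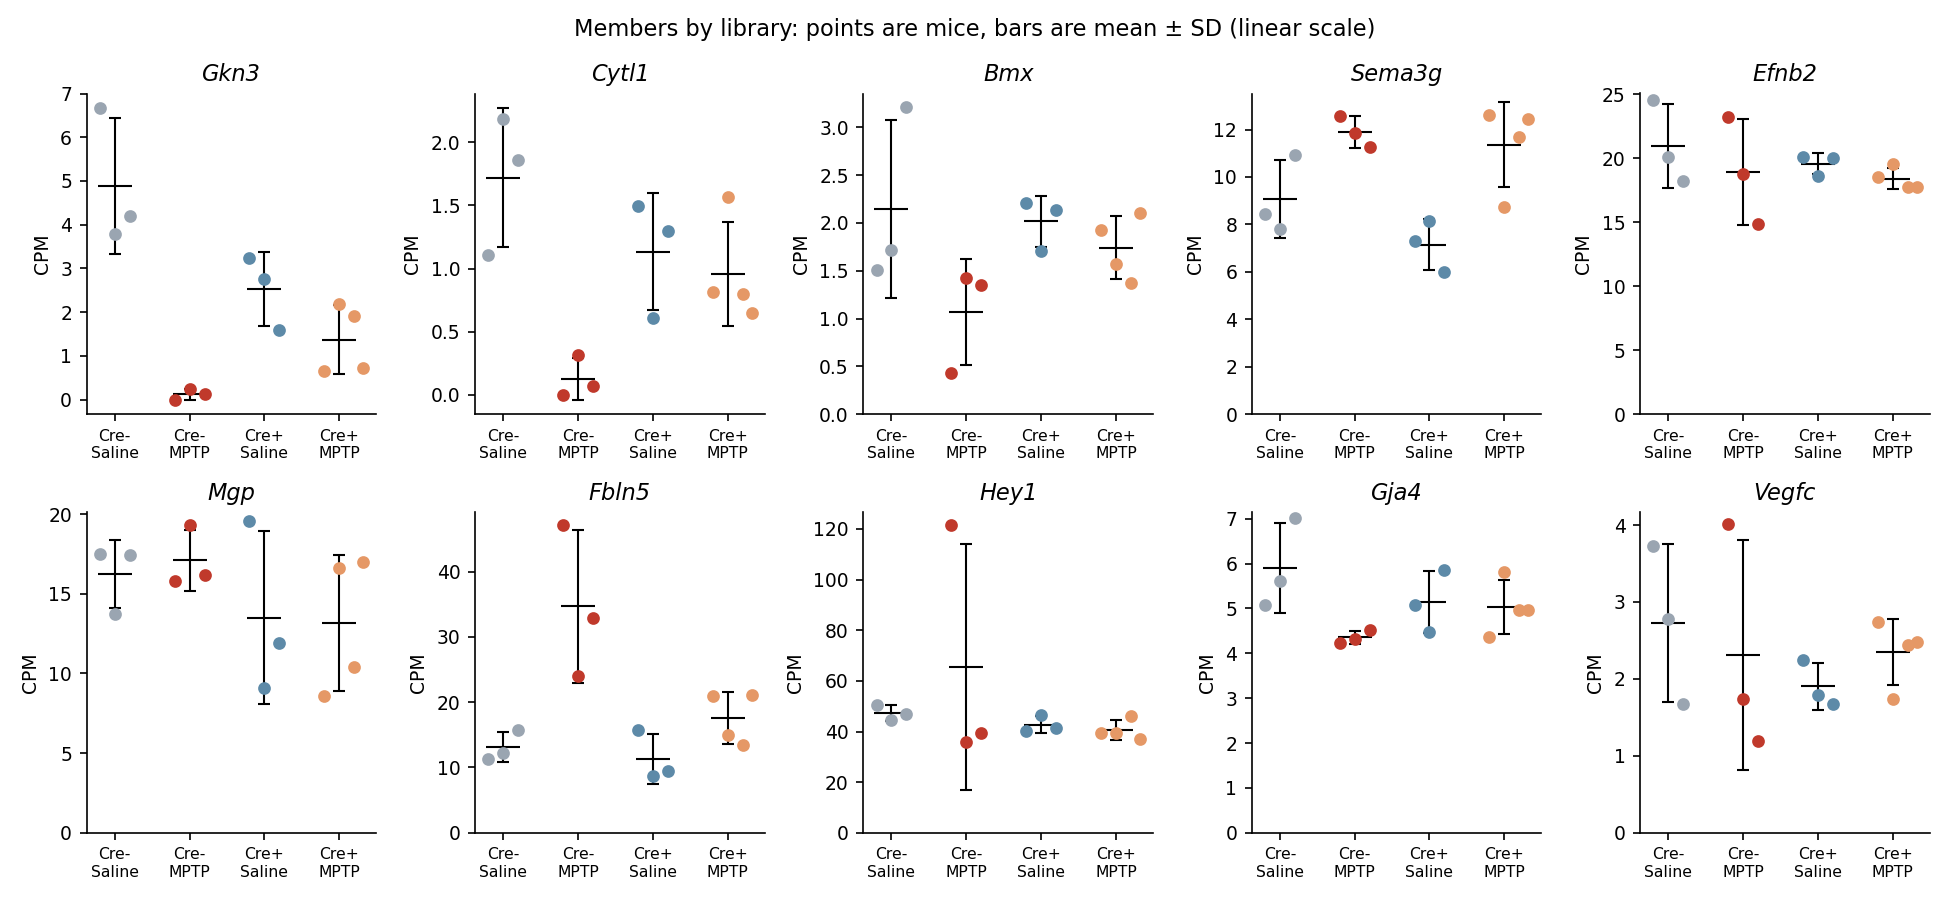
Level of each of the 10 genes in CPM (vertical axes, linear, one scale per gene) in the 4 groups; points are mice and bars are the mean ± SD. Gkn3 and Cytl1 lie near 0 in the 3 Cre- MPTP mice, Fbln5 is higher there, and the single high Hey1 point (121 CPM) is Cre- MPTP replicate 1.

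The first question was how MPTP changed arterial genes in mice with intact astrocytic Ripk3. In Cre- mice, the fitted log2 fold change with MPTP was -4.99 for Gkn3 (SE 0.668) and -3.48 for Cytl1 (SE 0.678). Fbln5, a protein of elastic fibre assembly, had the opposite sign, 1.40 (SE 0.299). By edgeR, called at an adjusted p under 0.05 over 19360 genes, 2 of the 10 genes were called lower (Gkn3 and Cytl1) and 1 higher (Fbln5), where 0.956% of all genes tested were called lower and 2.23% higher. Gkn3 and Cytl1 were selected on this fold change, so these counts test nothing about them. The CPM of the groups did not overlap for 6 of the 10 (Gkn3, Cytl1, Bmx, Sema3g, Fbln5 and Gja4), against 15.1% of all genes. The median log2 fold change of the 10 was -0.23 and that of all genes was 0.03. Gkn3 was called in each fit with 1 library left out. Leaving out replicate 3 of Cre- MPTP, or replicate 2 of Cre- Saline, ended the call of Cytl1, and its fold change was -4.99 without Cre- MPTP replicate 2. Fbln5 was not called without Cre- Saline replicate 1 or 2. Without both libraries that stood apart, the same 3 genes were called, at -4.70, -3.18 and 1.13.

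Among the ligands, Efnb2 overlapped between all groups, Sema3g was higher in the MPTP libraries without being called by edgeR, and Vegfc varied widely within groups. Efnb2, the ephrin ligand of EphB receptors, had 24.6, 20.1 and 18.2 CPM in Cre- Saline and 23.2, 18.7 and 14.9 CPM in Cre- MPTP libraries. All 7 Cre+ libraries had between 17.7 and 20.1 CPM. The groups overlapped, and the log2 fold change with MPTP was -0.15 (SE 0.172) in Cre- mice. Sema3g, a secreted semaphorin that signals through neuropilins, had 8.45, 7.81 and 10.9 CPM in Cre- Saline and 12.6, 11.8 and 11.3 CPM in Cre- MPTP libraries. It had 7.29, 8.14 and 6.02 CPM in Cre+ Saline and 12.6, 8.73, 11.7 and 12.4 CPM in Cre+ MPTP libraries. In both genotypes every MPTP library lay above every Saline library. The log2 fold change was 0.39 (SE 0.196) in Cre- and 0.67 (SE 0.186) in Cre+ mice. Vegfc, a growth factor of lymphatic and other endothelium, had 3.73, 2.77 and 1.68 CPM in Cre- Saline and 4.01, 1.74 and 1.19 CPM in Cre- MPTP libraries, with Cre- MPTP replicate 1 the highest of all 13. Its log2 fold change with MPTP in Cre- mice was -0.30 (SE 0.418), from -0.90 without that library to 0.031 without replicate 3 of Cre- MPTP. Limma voom called it lower, at -0.92.

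Of the intracellular and junctional genes, Bmx and Gja4 were lower in Cre- MPTP libraries without being called by edgeR, and Hey1 depended on 1 library. Bmx, a non-receptor tyrosine kinase of arterial endothelium, had 1.51, 1.72 and 3.21 CPM in Cre- Saline and 0.434, 1.43 and 1.35 CPM in Cre- MPTP libraries. The lowest value, 4 counts, was that of Cre- MPTP replicate 1, and the groups did not overlap. Its log2 fold change was -0.92 (SE 0.396), and -0.51 without Cre- Saline replicate 3. Gja4, the gap junction protein connexin 37, had 5.08, 5.62 and 7.01 CPM in Cre- Saline and 4.23, 4.32 and 4.52 CPM in Cre- MPTP libraries, a log2 fold change of -0.44 (SE 0.194). The 3 Cre- MPTP libraries lay close together, just below the Saline range. Hey1, a Notch-induced transcriptional repressor, reached 121 CPM in replicate 1 of Cre- MPTP, while its group mates had 35.8 and 39.3 CPM. The 10 libraries of the other groups had 37.1 to 50.6 CPM. The log2 fold change of Hey1 with MPTP in Cre- mice was 0.46 (SE 0.357), and -0.33 without Cre- MPTP replicate 1.

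The matrix genes differed from each other. Mgp, matrix Gla protein, an inhibitor of vascular calcification, had 17.5, 13.7 and 17.5 CPM in Cre- Saline and 15.8, 19.3 and 16.2 CPM in Cre- MPTP libraries, which overlapped (log2 fold change 0.08, SE 0.305). In Cre+ mice Mgp ranged from 9.07 to 19.6 CPM with Saline and from 8.61 to 17.0 CPM with MPTP. Fbln5 had 11.3, 12.2 and 15.8 CPM in Cre- Saline and 47.1, 24.0 and 32.9 CPM in Cre- MPTP libraries. It had 15.7, 8.66 and 9.44 CPM in Cre+ Saline and 20.9, 15.0, 13.4 and 21.1 CPM in Cre+ MPTP libraries. The 3 Cre- MPTP libraries were the highest of all 13, with the top value in replicate 1, and the Cre+ groups overlapped. With the pan-endothelial level as a covariate, the log2 fold change of Fbln5 in Cre- mice was 1.36 and no longer called. Dcn, a matrix gene of fibroblasts, was called higher in the same comparison (log2 fold change 1.52, SE 0.335) and was named after its values were seen. It was the 1 of 9 fibroblast genes called higher, and 3 were called lower. The summed level of the 9 was 233 to 283 CPM in Cre- Saline and 185 to 237 CPM in Cre- MPTP libraries. The part of fibroblasts in the Fbln5 values was not tested.

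In Cre+ mice, MPTP was compared with Saline, a fold change that was not used to choose Gkn3 and Cytl1. The genes were still picked with earlier results of these data known. Normalization and spread were estimated over all 13 libraries, the choosing ones included. None of the 10 genes was called by edgeR, where 0.0% of all genes tested were called. An unadjusted p under 0.05 was reached by 2 of the 10, Sema3g and Fbln5, against 3.47% of all genes. Gkn3 had a log2 fold change of -0.90 (SE 0.479) and Cytl1 of -0.26 (SE 0.518), each with an edgeR adjusted p of 1.00. The adjusted p of Sema3g was 0.660 with edgeR and 0.0124 with limma voom with sample quality weights, the only member called by that tool; DESeq2 called 0. Sema3g was also the 1 member whose groups did not overlap, against 9.66% of all genes. Its log2 fold change ranged from 0.56 to 0.77 with each library left out in turn. Fbln5 had a log2 fold change of 0.64 (SE 0.280), with an edgeR adjusted p of 1.00. The other 6 members had log2 fold changes between -0.21 (Bmx, SE 0.360) and 0.31 (Vegfc, SE 0.388), none larger than its SE. Cre+ MPTP replicate 4, the library with striated muscle genes, had 0.725 CPM of Gkn3 and 12.4 CPM of Sema3g, within the range of its group, and no member was called without it.

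**Figure D2:**
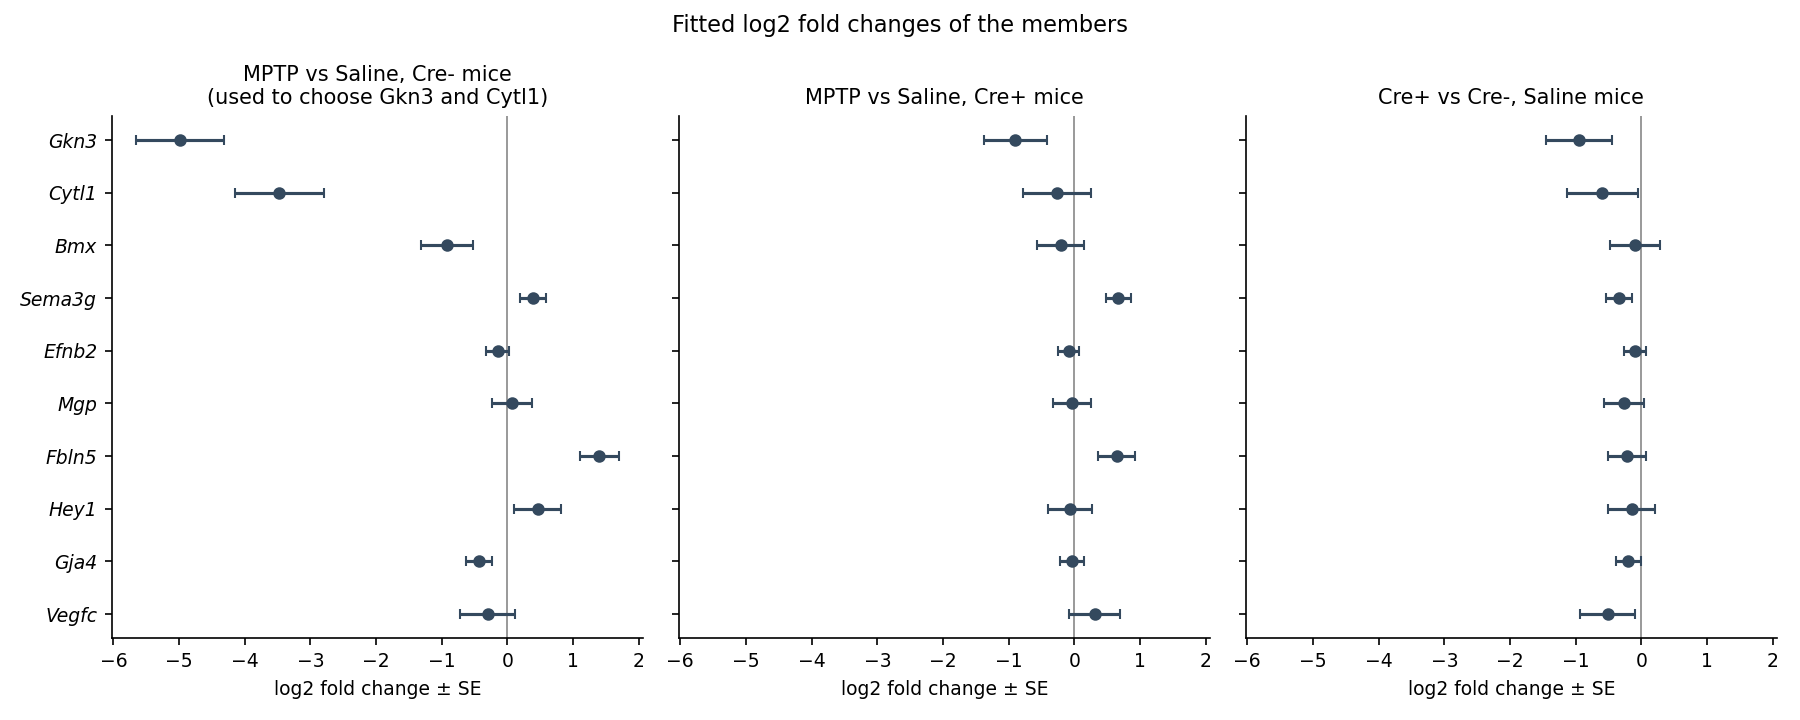
Log2 fold change (horizontal axes, shared scale) of the 10 genes in 3 comparisons; points are fitted values and bars are ± SE. The values of Gkn3 (-4.99) and Cytl1 (-3.48) in Cre- mice, by which they were chosen, lie far from 0, and in Cre+ mice Sema3g (0.67) and Fbln5 (0.64) lie above it.

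Under Saline, the genotypes were compared to see whether the arterial genes differed before MPTP. None of the 10 genes was called, as for 0.0% of all genes tested, and 0 had an unadjusted p under 0.05, against 0.909% of all genes. Neither DESeq2 nor limma voom called a member. Gkn3 had 4.88 ± 1.56 CPM in Cre- Saline and 2.53 ± 0.841 CPM in Cre+ Saline libraries (SD, n = 3 each), which did not overlap, and the fitted difference was -0.95 on the log2 scale (SE 0.501) with an adjusted p of 1 by edgeR. It was the 1 member without overlap, against 11.6% of all genes. Cytl1 had 1.72 ± 0.552 and 1.13 ± 0.465 CPM (SD, n = 3 each), which overlapped, and a log2 fold change of -0.60 (SE 0.541), with the same adjusted p by edgeR. The fitted values of all 10 were below 0, with a median of -0.24 against -0.01 over all genes. This comparison shares the Cre- Saline libraries with the one by which Gkn3 and Cytl1 were chosen.

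Under MPTP, the comparison of genotypes asked whether arterial genes differed without astrocytic Ripk3, and it shares the Cre- MPTP libraries with the choosing comparison. The log2 fold change of Cre+ against Cre- was 3.14 for Gkn3 (SE 0.652), 2.61 for Cytl1 (SE 0.665) and -0.97 for Fbln5 (SE 0.273). These 3 were the members whose groups did not overlap, against 11.3% of all genes. By edgeR, Gkn3 was called higher and no member lower, where 0.517% of all genes were called higher and 1.03% lower. DESeq2 called Gkn3 and Cytl1 higher and Fbln5 lower. Limma voom called Cytl1 higher and Fbln5 lower, but not Gkn3. Leaving out replicate 3 of Cre- MPTP, replicate 1, 2 or 3 of Cre+ MPTP, or any 1 of the 6 Saline libraries ended the call of Gkn3, with values from 2.83 to 3.74 over all libraries left out. Hey1 had a value of -0.69 (SE 0.332), and 0.11 without Cre- MPTP replicate 1. Bmx (0.62, SE 0.377) and Mgp (-0.38, SE 0.285) came next, and the other 4 lay between -0.06 and 0.20.

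The interaction of genotype and MPTP, the difference between the MPTP effects of Cre+ and Cre- mice, uses the choosing libraries as well. It was 4.09 for Gkn3 (SE 0.825) and 3.21 for Cytl1 (SE 0.858) on the log2 scale. None of the 10 genes was called by edgeR, where 0.0103% of all genes were, and 2 of the 10, the chosen Gkn3 and Cytl1, had an unadjusted p under 0.05, against 5.76% of all genes. As these 2 were selected on a part of this difference, these counts are a description. DESeq2 called both, limma voom called both and Vegfc, and edgeR called Gkn3 without Cre- MPTP replicate 1. The remaining 8 genes had values between -0.75 (Fbln5, SE 0.403) and 0.72 (Bmx, SE 0.536).

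Per kilobase of exon, the arterial genes spanned a wide range in Cre- Saline libraries. Hey1 (14.5 ± 0.929 CPM per kb, SD, n = 3) and Mgp (13.7 ± 1.81) were highest and overlapped each other. Gkn3 (5.71 ± 1.82) was below both and above Gja4 (3.50 ± 0.591), without overlap on either side. The order then ran through Efnb2, Fbln5, Sema3g, Cytl1 (1.63 ± 0.523) and Vegfc to Bmx (0.694 CPM per kb), and each of these overlapped its neighbours. In Cre- MPTP libraries Gkn3 had a mean of 0.144 and Cytl1 of 0.121 CPM per kb, below Bmx at 0.346.

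Other genes of arterial endothelium were examined from a list of 20. In Cre- mice 2 of the 20 were called lower with MPTP and 0 higher, against 0.956% and 2.23% of all genes. The median log2 fold change of the 20 was -0.20. Alpl, tissue-nonspecific alkaline phosphatase, had 11.3 to 14.05 CPM in Cre- Saline and 3.72 to 4.88 CPM in Cre- MPTP libraries, a log2 fold change of -1.53 (SE 0.228). In Cre+ mice it had 11.1 to 13.3 CPM with Saline and 7.38 to 13.5 CPM with MPTP. The Cre- MPTP libraries lay below all others. Alpl was also called higher in Cre+ than in Cre- mice under MPTP (1.24, SE 0.216), as 1 of the 20, against 0.517% of all genes. Unc5b, a netrin receptor found on endothelial cells, had 65.1 to 122 CPM in Cre- Saline and 23.6 to 57.1 CPM in Cre- MPTP libraries, a log2 fold change of -1.30 (SE 0.287). The highest gene of the list by mean CPM, Stmn2 (319 CPM), is also a neuronal gene and was not called. Stmn2 had 309 to 383 CPM in Cre- Saline and 133 to 333 CPM in Cre- MPTP libraries. It makes up a large part of the summed level of the list, and the sum without it was not examined. With MPTP in Cre+ mice, and between genotypes under Saline, 0 of the 20 were called, as for 0.0% of all genes. Their summed level was 842 to 909 CPM in Cre- Saline, 647 to 748 in Cre- MPTP, 840 to 898 in Cre+ Saline and 801 to 842 in Cre+ MPTP libraries.

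**Figure D3:**
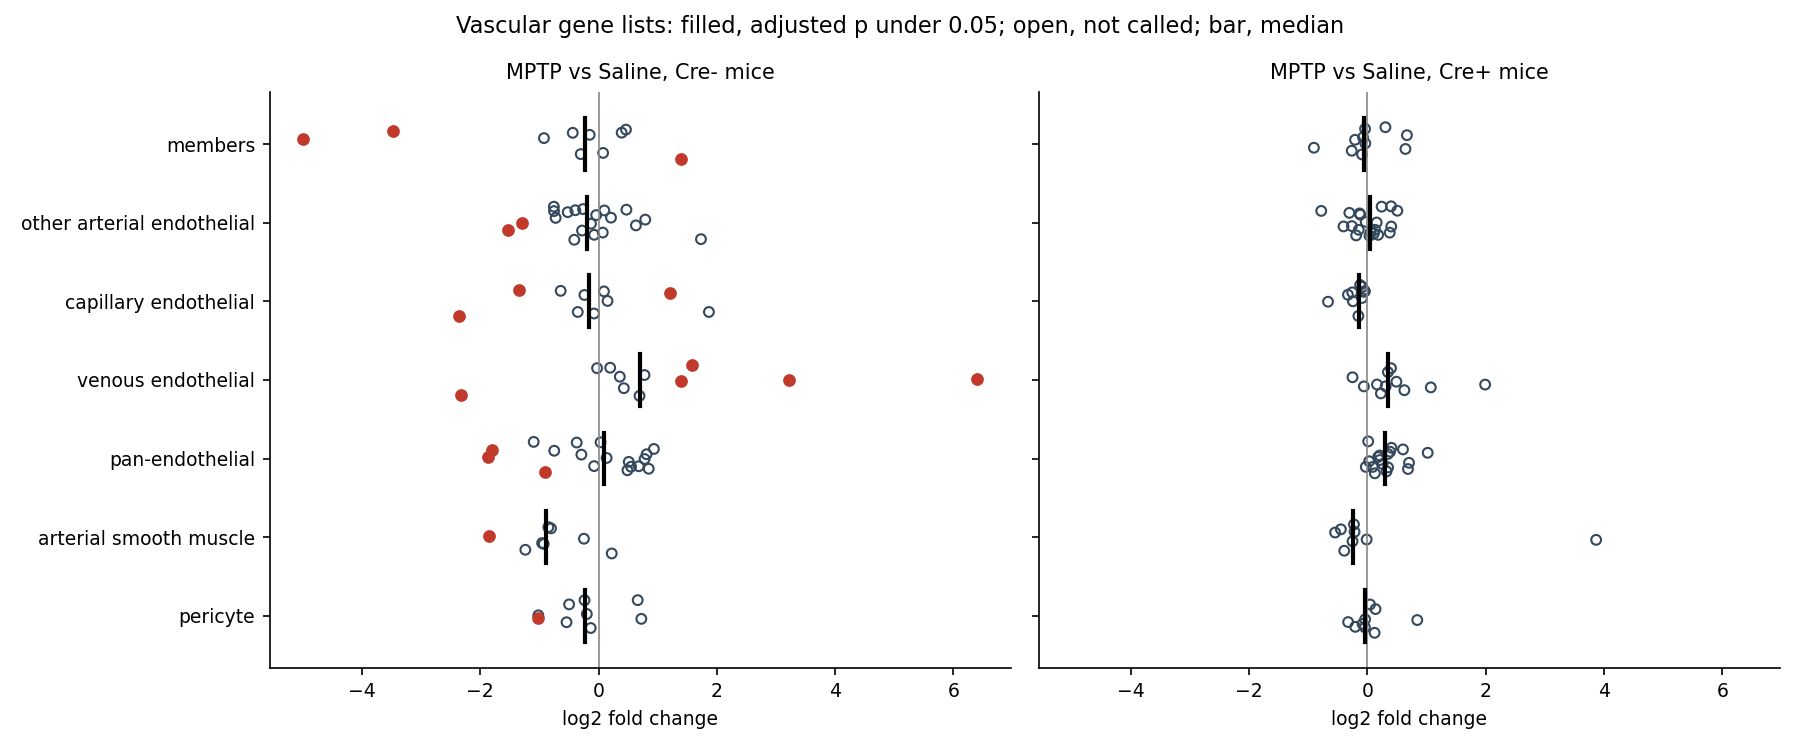
Log2 fold change with MPTP (horizontal axes) of each gene of 7 vascular lists in Cre- mice (left) and Cre+ mice (right); filled points passed an adjusted p of 0.05, open points did not, and bars are list medians. Filled points occur in the left panel, on both sides of 0. Medians there are -0.23 for the 10 members, which include the chosen Gkn3 and Cytl1, and -0.20 for the 20 other arterial genes. They are -0.24 for pericyte, -0.16 for capillary, -0.89 for smooth muscle, 0.08 for pan-endothelial and 0.69 for venous genes.

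Of 16 genes of the Notch pathway, which directs arterial fate and induces Hey1, 0 were called in any of the 5 comparisons. In those comparisons at most 2.23% of all genes were called higher and at most 1.03% lower. The highest by mean CPM, the Notch ligand Jag2, had 50.8 to 64.8 CPM in Cre- Saline libraries. In Cre- MPTP libraries it had, from lowest to highest, 50.9, 53.3 and 179 CPM. The summed level of the 16 genes was 660 CPM in Cre- MPTP replicate 1, against 286 and 288 CPM in replicates 2 and 3. In Cre- Saline libraries this sum was 255 to 325 CPM. The calls of the Notch list without Cre- MPTP replicate 1 were not examined. Of 18 receptors and partners of the members, which include the EphB receptors of ephrin B2, the neuropilins and plexins that receive semaphorins, and Flt4 and Kdr for VEGF-C, 0 were called with MPTP in either genotype. Over all genes, 0.956% were called lower and 2.23% higher with MPTP in Cre- mice, and 0.0% were called in Cre+ mice. Kdr, VEGF receptor 2, was the 1 called higher in Cre+ than in Cre- mice under MPTP, against 0.517% of all genes. Kdr had 21.3 to 23.9 CPM in Cre- Saline, 6.50 to 13.01 in Cre- MPTP, 18.1 to 24.7 in Cre+ Saline and 19.7 to 39.3 in Cre+ MPTP libraries, and the log2 fold change between genotypes under MPTP was 1.28 (SE 0.279). The highest of this list, the astrocyte gap junction gene Gja1 (259 CPM), was not called.

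Neighbouring cell types of the vessel wall were counted in the same fits, where 0.956% of all genes were called lower and 2.23% higher with MPTP in Cre- mice. With MPTP in Cre- mice, 3 of 18 pan-endothelial genes were called lower and 0 higher, and the summed pan-endothelial level was 640 to 739 CPM in Cre- Saline and 1036, 672 and 715 CPM in Cre- MPTP libraries. Of 8 arterial smooth muscle genes, 1 was called lower, with sums of 73.9 to 112 and 27.9 to 60.5 CPM. Of 9 pericyte genes, 1 was called lower, with sums of 330 to 371 and 225 to 281 CPM. The sums of the mural lists were thus lower in every Cre- MPTP library than in every Cre- Saline library, and those of the pan-endothelial list overlapped. Within the latter sum, Slc2a1 had a mean of 148 ± 15.0 CPM in Cre- Saline and 255 ± 92.0 CPM in Cre- MPTP libraries (SD, n = 3 each). Cldn5 reached 298 CPM in a Cre- MPTP library, with a group median of 60.3 CPM. The pan-endothelial sum without these genes was not examined. The part of the list differences in the values of Gkn3 and Cytl1 was not tested. With the pan-endothelial level as a covariate, their fitted log2 fold changes with MPTP in Cre- mice were -5.18 and -3.76. This covariate is the mean log2 CPM of the list, not its sum, and includes the 3 genes called lower. It does not measure arterial cells, so these values are a description. Of 10 capillary genes 1 was called higher and 2 lower, of 11 venous genes 4 higher and 1 lower, and of 9 fibroblast genes 1 higher and 3 lower. No gene of 5 striated muscle, 4 tested choroid plexus or 7 neuronal genes was called, while 2 of 5 astrocyte genes were called higher. In Cre+ mice treated with MPTP, and between genotypes under Saline, 0 genes of any list were called, as for 0.0% of all genes. By mean CPM over the 13 libraries, the highest gene was Slc2a1 (181 CPM) for pan-endothelial, Spock2 (1205) for capillary, Mylk (17.1) for smooth muscle, Rgs5 (105) for pericyte and Igf2 (88.3) for fibroblast genes. For lists of other tissues and cells it was Ttr (6.80 CPM) for choroid plexus, Myh6 (269) for striated muscle, Snap25 (1993) for neuronal and Gfap (776) for astrocyte genes. Spock2 had a mean of 1276 CPM in Cre- Saline libraries, against a mean sum of 1690 CPM for the whole capillary list. Which cells carry its RNA was not tested.

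**Figure D4:**
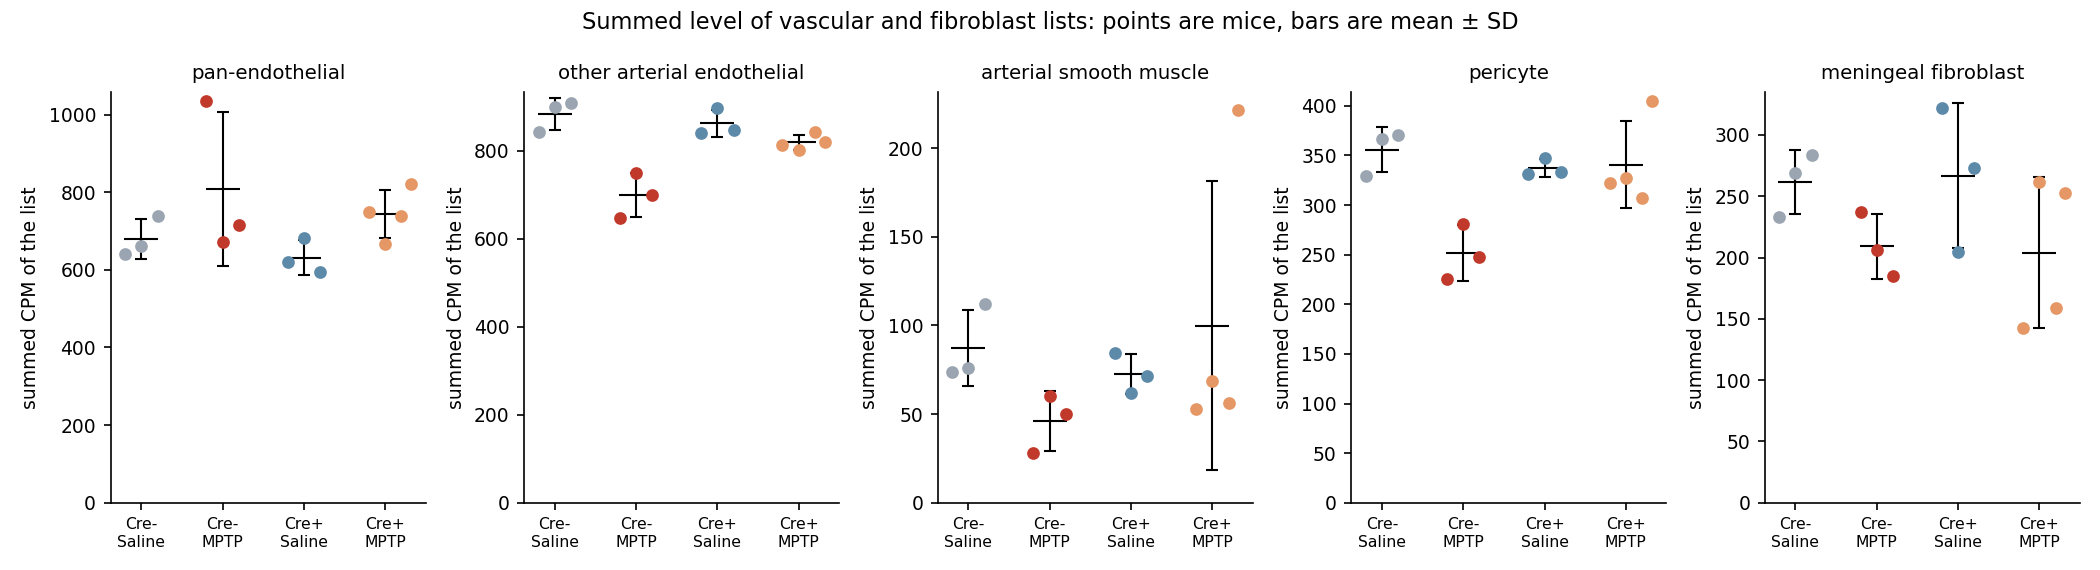
Summed CPM of 5 lists of vascular and fibroblast genes (vertical axes, from 0, one scale per list) in the 4 groups; points are mice and bars are the mean ± SD. Sums of the arterial list, which includes the neuronal gene Stmn2, and of the pericyte list are lowest in the 3 Cre- MPTP mice. Smooth muscle sums of those mice overlap Cre+ MPTP. The high smooth muscle point (221 CPM) is Cre+ MPTP replicate 4, where the single gene Des has 159 CPM.

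The genes whose log2 CPM followed Gkn3 most closely over the 13 libraries, members left out, were Ptn (Pearson r = 0.973), Ninj2 (0.968), Sept4 (0.957), Slc22a8 (0.951) and Itm2a (0.949). Without the 2 libraries farthest from the median of Gkn3, Cre- MPTP replicates 1 and 3, these r were 0.883 to 0.930, and r of the deviations from the group means was 0.716 to 0.894. For Cytl1 they were Dpp4 (0.962), Ugt8a (0.955), Prom1 (0.953), Fmod (0.953) and Lpar1 (0.951), with r of 0.778 to 0.868 without the same libraries and 0.764 to 0.930 for the deviations. The points share the 4 groups, and Cre- MPTP replicate 1 had the fewest counts, so these r are descriptions. Gkn3 and Cytl1 had an r of 0.907 with each other, and 0.520 for the deviations from the group means.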

How the data were processed

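RNA-Seq was performed on total RNA from the midbrains of 13 mice with a stranded total RNA kit. Per the labels and methods, reads were trimmed with Trimmomatic 0.36, mapped to GRCm38 with STAR 2.5.2b, and unique hits per gene were counted with featureCounts (Subread 1.5.2). The strand setting of the counting was not given in the sources used here. The authors deposited these counts, whole numbers per gene without normalization, and tested them with DESeq2. Symbols of 49056 of 49315 genes and positions were taken from GENCODE M21. Libraries were grouped by genotype and treatment from the labels, and no 2 were counting repeats of one library (chi-square per gene at least 6.8 between group members).

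The quasi-likelihood test of edgeR 4.0.16 (R 4.3.3) was applied to the 19360 genes that reached 10 counts in 3 or more libraries, after TMM normalization and with a separate mean for each of the 4 groups, with Benjamini-Hochberg adjustment in each comparison and calls at an adjusted p under 0.05. The SE is the absolute log2 fold change divided by the square root of F. CPM used TMM factors. Low totals limit genes with few counts, such as Gkn3 and Cytl1, and floors (3 counts) cover counting error only. The p-values of edgeR set a group difference against the spread between mice, estimated over all 4 groups and with information shared between genes.

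The alternatives were DESeq2 1.42.0, sample-weighted voom of limma 3.58.1, edgeR restricted to the groups compared, RLE size factors, other count filters, a replicate block, the mean log2 CPM of the pan-endothelial list as a covariate, and each library left out. Leaving out both libraries that stood apart was added after seeing the data. Scripts were tested on simulated data. Named genes were the 10 members, called genes of the other arterial, Notch pathway and receptor lists, the highest gene of each list (that of the venous list is not reported here), and the 5 genes most correlated with Gkn3 and with Cytl1 (prior count 2). Members and lists were chosen with earlier results of these data known. Promoters were RefSeq windows, found for 8 members; a match of a motif is a description. No gene shared exons with a member; 3 TEC genes (to be experimentally checked) lie inside Efnb2 on its strand.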

Additional observations from a re-analysis of the deposited data

Results flagged for a closer look

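In the Cre+ MPTP group, 4 marker lists had 1 library far above the other 3. In replicate 4 the summed level of the striated muscle list was 5486 CPM (13.2 to 61.8 in the others) and that of the arterial smooth muscle list was 221 CPM (53.0 to 68.5). Of the latter, 159 CPM were Des, which striated muscle also expresses; without Des the sum was 62.4 CPM, within the 51.6 to 66.2 CPM of the others, a split made after seeing the values. In replicate 1 the choroid plexus list had 69.0 CPM (9.96 to 15.8 in the others). In replicate 2 the astrocyte list had 1611 CPM (1227 to 1245). Chance puts about 1 in 20 groups past this limit. None of the 10 arterial genes had such a library in this group, the 1 group with 4 mice.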

How the results depend on the processing

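Over 22 alternatives, 1035 of 1090 recomputed fold changes of members kept their direction and side of the threshold or, where not tested, moved by less than their SE. Another 41 moved further, 13 changed sign and 1 passed the threshold. In comparisons with Cre- MPTP libraries, a change of sign was counted as such only for members called in the main fit. Hey1 with MPTP in Cre- mice, 0.46 in the main fit and -0.25 with limma voom, is thus not among the 13. Members called with MPTP in Cre- mice numbered 3, but 4 with limma voom (Vegfc added), 1 with edgeR on the 2 groups alone and 1 to 3 with a library left out. With MPTP in Cre+ mice limma voom called 1 (Sema3g). For genotype under MPTP, 3 were called by DESeq2 and 2 by limma voom, and 0 by edgeR on the 2 groups alone, with the pan-endothelial covariate or with the replicate block; with a library left out the number was 0 to 3. For the interaction DESeq2 called 2, limma voom 3, and edgeR 0 to 1 with a library left out and 1 (Gkn3) without both libraries that stood apart. The cause of these changes was not tested. Mouse numbers showed no pairing in the deviations from group means. Same-numbered mice had r of -0.179 to 0.184 (18 pairs) and different-numbered mice -0.182 to 0.239 (45 pairs). With so few mice per group, these r cannot exclude a shared litter or batch. The block left 3 members called with MPTP in Cre- mice.

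Signs of small values were not stable. With the pan-endothelial covariate, log2 fold changes with MPTP in Cre+ mice became 0.33 (Cytl1), 0.22 (Efnb2) and 0.56 (Hey1), and that of Bmx between genotypes under Saline 0.34 (0.092 with limma voom). With a library left out, values ran from -0.26 to 0.32 (Mgp) and -0.13 to 0.067 (Gja4) with MPTP in Cre+ mice, and from -0.29 to 0.33 (Bmx) and -0.18 to 0.032 (Efnb2) between genotypes under Saline.

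Over all genes, the 616 calls with MPTP in Cre- mice were 110 with edgeR on the 2 groups, 1137 with DESeq2, 2624 with limma voom and 1923 without both libraries that stood apart. The 299 calls for genotype under MPTP were 0, 834, 1224 and 557, with 3 under the covariate and 0 under the block. The 2 calls of the interaction were 223 with DESeq2, 689 with limma voom and 220 without both libraries that stood apart. The 0 calls with MPTP in Cre+ mice were 83 with DESeq2, 294 with limma voom, 15 on the 2 groups, 9 with no filter and 38 without both; the 0 calls for genotype under Saline were 2, 3 and 6 with DESeq2, limma voom and the 2 groups. With a library left out, MPTP in Cre- mice gave 311 calls (Cre- Saline replicate 2 left out) to 1812 (replicate 1 of Cre- MPTP left out), MPTP in Cre+ mice 0 to 32 and the interaction 0 to 199, the highest with the same library left out. For genotype under MPTP they were 41 without Cre+ MPTP replicate 3, 42 without replicate 1, and 1826 without Cre- MPTP replicate 2, of which 1581 were lower, so the background shares of that comparison rest on single libraries. With 0 to 8 counts of Gkn3 or Cytl1 per Cre- MPTP library, their fold changes are imprecise.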

Other observations

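Genes of other vessel segments were called in both directions with MPTP in Cre- mice and are named here after their values were seen. Selp (P-selectin, a leukocyte adhesion receptor of venous endothelium) had 0.0781 to 0.183 CPM in Cre- Saline and 5.09 to 17.5 CPM in Cre- MPTP libraries, and 0.266 to 3.08 CPM in Cre+ MPTP libraries. Tmem252, Il1r1 (the interleukin-1 receptor) and Ackr1 (a chemokine-binding receptor of venules) were also higher, with log2 fold changes of 3.21 (SE 0.448), 1.57 (SE 0.363) and 1.40 (SE 0.242). Slc38a5, an amino acid transporter, was the venous gene called lower, at -2.33 (SE 0.349). Among capillary genes, Mfsd2a, a lipid transporter of the blood-brain barrier, was higher (1.21, SE 0.238), while the organic anion transporter Slc22a8 (-2.36, SE 0.380) and the chemokine Cxcl12 (-1.34, SE 0.173) were lower. The pan-endothelial genes called lower were Tek (the angiopoietin receptor, -1.81, SE 0.285), Ptprb (-1.88, SE 0.355) and the tight junction gene Ocln (-0.90, SE 0.212).

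Under MPTP, Tek (1.88, SE 0.275), Ptprb (1.85, SE 0.341), Slc38a5 (2.53, SE 0.339), Slc22a8 (1.67, SE 0.358) and Cxcl12 (0.89, SE 0.163) were called higher in Cre+ than in Cre- mice. Mfsd2a (-1.25, SE 0.218), Selp (-3.08, SE 0.634), Ackr1 (-1.16, SE 0.221) and Tmem252 (-1.96, SE 0.384) were called lower. Both comparisons share the 3 Cre- MPTP libraries, so their values are given side by side only. Calls used edgeR's quasi-likelihood test at an adjusted p of 0.05.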
